A study of Mus musculus with 3 samples.

Results

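The mitral layer of the mouse main olfactory bulb was set against the granule cell layer beneath it, within each of 3 tissue sections. The mitral layer was taken as every spot that the deposited annotation names Mitral Layer (M/T). The granule layer was taken as every spot of the external or the internal granule cell layer (GCL-E and GCL-I), pooled. Counts of a side were summed within a section, which gave 6 sums for this comparison out of 27 sums of section and region in the series. The mitral sums held 35198, 27057 and 32816 spots in sections 1, 2 and 3 (95071 in all), and the granule sums held 110199, 75253 and 86141 spots (271593 in all).

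All 3 sections were coronal, came from C57BL/6J mice aged 12 weeks, and were profiled by high-density spatial transcriptomics, in which poly(A) RNA is captured from a tissue section on an array of barcoded spots smaller than most cells. No treatment or genetic change is named, and both sides share strain, age and tissue. The labels do not tell which animal a section came from, so the spread between these sections may be technical. The p-values rest on a spread shared across genes and give almost no weight to a gene's own spread between sections. The labels do not tell how the layers were outlined or whether expression of any gene entered into it. A spot can hold RNA of several cells, and in sums of spots fewer cells of a type and less RNA per cell cannot be told apart.

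Mitral cells are the large glutamatergic output neurons of the bulb. Their cell bodies form a thin sheet, their apical dendrites reach the glomeruli, their lateral dendrites run in the external plexiform layer, and their axons leave through the internal plexiform layer. Granule cells are small GABAergic interneurons without an axon, which receive glutamate from mitral cell dendrites and release GABA back onto them at paired dendrodendritic synapses. The neighbourhood of a mitral cell body therefore also holds dendrites, glia and interneurons.

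The mitral sums held 15765, 35318 and 32015 counts, and the granule sums held 62244, 81829 and 70954 counts. Per 100 spots, the mitral layer had 44.8, 131 and 97.6 counts and the granule layer 56.5, 109 and 82.4 counts in sections 1, 2 and 3. The mitral layer was the less dense side in section 1 (ratio of mitral to granule 0.793) and the denser side in sections 2 and 3 (1.20 and 1.18). Section 1 stood apart from the others in composition as well. The chi-square statistic per degree of freedom between 2 mitral sums was 3.02 and 2.99 with section 1 and 1.13 between sections 2 and 3, and between granule sums it was 3.53, 3.36 and 1.12. Levels below are counts scaled to a common total of 1000000 per sum (CPM). Fold changes are mitral over granule on the log2 scale with their approximate standard error, from edgeR's quasi-likelihood test with section as a block and Benjamini-Hochberg adjustment over all genes tested.

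Of 1063 genes with enough counts to be tested, 33 were higher in the mitral layer (3.1%) and 24 were lower (2.26%) at an adjusted p under 0.05, so 5.36% were called in either direction. The median log2 fold change over all tested genes was 0.01, and 547 of them were positive. Among the 33 higher genes, 30 were on the same side in all 3 sections, and the 3 mitral values lay above all 3 granule values for 23. That absence of overlap held for 5.55% of all tested genes in this direction. Among the 24 lower genes, 23 were on the same side in all 3 sections and 16 had no overlap, against 7.43% of all tested genes. DESeq2 called 8 genes, all higher (0.753%), and no lower gene, with 62 genes in both directions at an unadjusted p under 0.05.

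Most calls were lost when section 2 or section 3 was left out. Of the 57 called genes, 37 were also called without section 1 (background 3.3% of tested genes), 8 without section 2 (0.894%) and 2 without section 3 (0.172%). The genes called by DESeq2 included Rab3b, Slc17a7, Cdhr1, Doc2g, Sncb, Map1b and Lars2. Those called without section 2 included Slc17a7, Cdhr1, Doc2g, Sncb, Map1b, Olfm1 and Pcbp3, and Pcbp3 was the only one of the 8 that was lower in the mitral layer. Without section 3, Slc17a7 and Doc2g were the 2 that remained, each at an adjusted p of 0.0402.

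**Figure D1:**
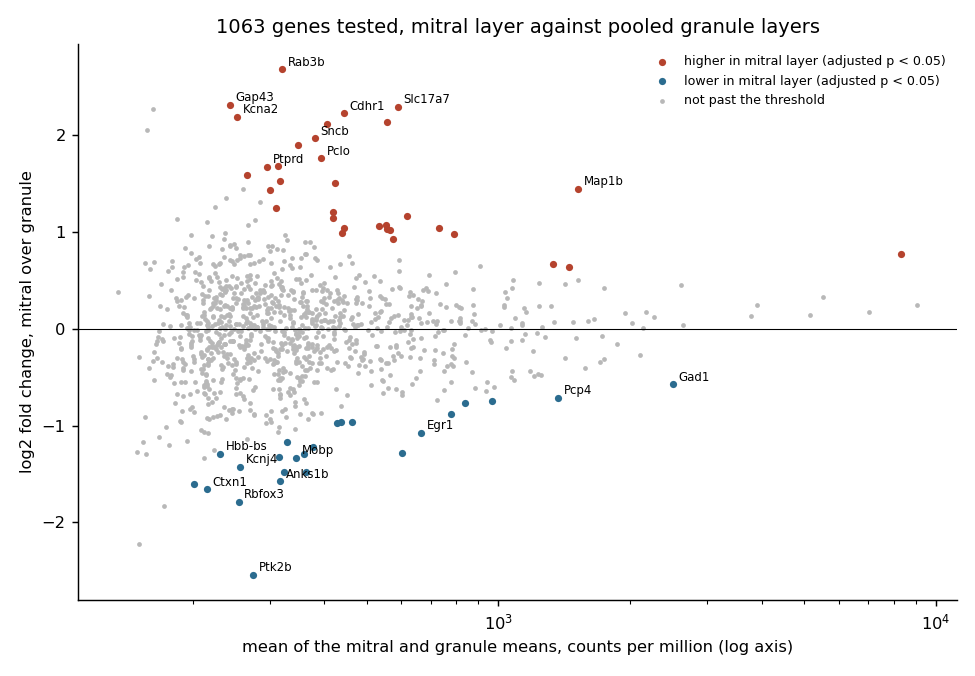
Log2 fold change (mitral over granule) of each of the 1063 tested genes against its mean level, with genes past the threshold coloured by direction and some of the largest changes named. The 33 higher genes reach 2.68 and the 24 lower genes reach -2.54, while the median gene sits at 0.01.

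The genes that mark mitral and tufted cells formed the group with the largest median difference. Of 17 genes on a list of such markers, 16 were present in the files and 7 had enough counts to be tested. All 7 were positive, 5 passed the test as higher, none as lower, and the median log2 fold change was 1.90. Of all tested genes, 3.1% were higher and 2.26% lower. A gene could enter the test through the sums of either side alone, here and in the lists below. The direction and median of markers that are high on 1 side are therefore in part set by the filter, and are not independent support. Summed over the list, the level was 6914, 4247 and 4935 CPM in the mitral layer of sections 1, 2 and 3, against 1880, 1259 and 1395 CPM in the granule layer, with no overlap.

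Slc17a7, which encodes the vesicular glutamate transporter VGLUT1 and lies at chr7:45163949-45176142 of mm10 on the plus strand, had 23, 22 and 28 counts in the mitral layer and 15, 14 and 12 in the granule layer, although the granule sums were deeper. This was 1459, 623 and 875 CPM in the mitral layer, against 241, 171 and 169 CPM in the granule layer. Each mitral value was above each granule value, and the log2 fold change was 2.29 ± 0.29 (SE, adjusted p = 2.89e-12). Without section 3 the adjusted p was 0.0402. This marker of projection neurons and the interneuron marker Gad1, given below, both went with the names of the layers.

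Doc2g, a member of the double C2-domain family of vesicle proteins, had 1459, 680 and 593 CPM in the mitral layer, against 257, 159 and 183 CPM in the granule layer. Its log2 fold change was 2.13 ± 0.29 (adjusted p = 1.63e-10), and the groups did not overlap. Its annotated span overlaps that of the protein-coding model Gm49405, so reads may be shared. Cdhr1, a cadherin-related membrane protein used as a mitral and tufted cell marker, had 761, 651 and 781 CPM in the mitral layer, against 193, 183 and 98.7 CPM in the granule layer (log2 fold change 2.22 ± 0.31, adjusted p = 3.16e-10). Reln, the secreted glycoprotein reelin, had 507, 510 and 625 CPM in the mitral layer, against 161, 147 and 141 CPM in the granule layer (1.90 ± 0.35, adjusted p = 6.94e-06). Uchl1, an abundant neuronal deubiquitinase, averaged 470 ± 116 CPM in the mitral layer and 156 ± 82.2 CPM in the granule layer (SD, n = 3 each; log2 fold change 1.67 ± 0.39, adjusted p = 0.00134). None of these genes had overlapping groups. The adjusted p without section 3 was 0.114 for Cdhr1, 0.182 for Reln and 0.341 for Uchl1, and without section 2 it was 0.0739 for Reln and 0.133 for Uchl1.

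Trnp1 and Thy1, also on the marker list, did not pass. Trnp1, a nuclear protein, averaged 410 ± 195 CPM in the mitral layer and 161 ± 57.5 CPM in the granule layer (SD, n = 3 each; log2 fold change 1.30 ± 0.44, adjusted p = 0.0573). The transcription factors that define the lineage were too sparse to test. Tbx21 had 2, 2 and 6 counts in the mitral layer and 1, 1 and 0 in the granule layer, and Eomes had 3, 7 and 7 in the mitral layer and 1, 2 and 6 in the granule layer. Tbr1 had 0, 0 and 2 counts in the mitral layer and 1, 0 and 0 in the granule layer. Ebf3 and Nts were at 0 on both sides. Slc17a6, the second vesicular glutamate transporter, had 2 counts in the mitral layer, both in section 2, and none in the granule layer.

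**Figure D2:**
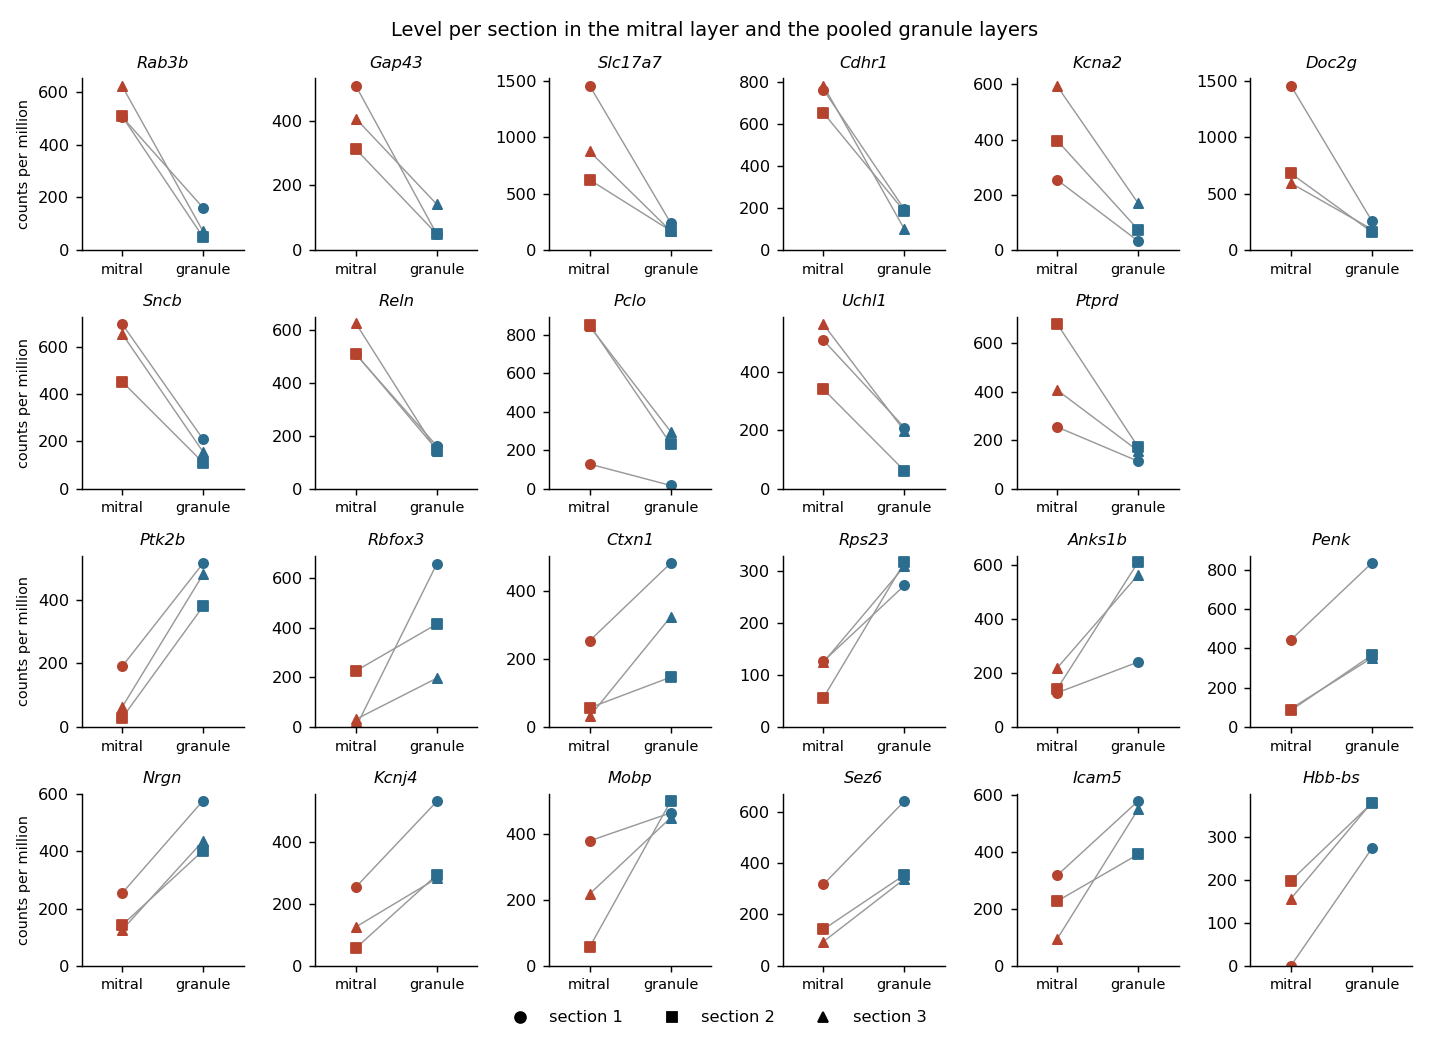
Level (CPM) of 11 of the largest higher and the 12 largest lower genes in the mitral layer and in the pooled granule layers, 1 symbol per section, with lines joining the 2 sums of a section. Slc17a7 lies between 623 and 1459 CPM in the mitral layer and between 169 and 241 CPM in the granule layer, and Ptk2b lies between 28.3 and 190 CPM and between 379 and 514 CPM in the same layers.

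Some genes of neurotransmitter release were higher in the mitral layer. Of 18 tested genes of the synaptic vesicle and release list, 3 were higher and none lower, with a median log2 fold change of 0.22. Of all tested genes, 3.1% were higher and 2.26% lower. Rab3b, a small GTPase of secretory vesicles, showed the largest fold change of the comparison. It had 8, 18 and 20 counts in the mitral layer and 10, 4 and 5 in the granule layer, or 507, 510 and 625 CPM in the mitral layer against 161, 48.9 and 70.5 CPM in the granule layer. The groups did not overlap (log2 fold change 2.68 ± 0.43, adjusted p = 1.58e-07). Leaving out section 2 gave an adjusted p of 0.0507, and leaving out section 3 one of 0.158. Rab3a, its close relative that serves most central synapses, averaged 842 ± 353 CPM in the mitral layer and 791 ± 232 CPM in the granule layer (SD, n = 3 each; log2 fold change 0.08, adjusted p = 0.927).

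Sncb, the presynaptic protein beta-synuclein, had 698, 453 and 656 CPM in the mitral layer, against 209, 110 and 155 CPM in the granule layer (log2 fold change 1.96 ± 0.34, adjusted p = 1.38e-06). The groups did not overlap, and without section 3 the adjusted p was 0.158. The core fusion machinery was present on both sides without a call. Snap25, the SNARE protein of the plasma membrane, averaged 4110 ± 174 CPM in the mitral layer and 3705 ± 982 CPM in the granule layer, and Vamp2, its vesicle partner, averaged 2190 ± 1399 and 2102 ± 937 CPM in the mitral and the granule layer.

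Pclo, the active-zone scaffold piccolo, and Syt7, a calcium sensor of the synaptotagmin family, were also higher but belong to none of the lists. Pclo had 2, 30 and 27 counts in the mitral layer and 1, 19 and 21 in the granule layer, so section 1 contributed almost nothing, and its values overlapped between the groups (log2 fold change 1.76 ± 0.30, adjusted p = 7.62e-07). Syt7 had 317, 481 and 500 CPM in the mitral layer, against 177, 220 and 169 CPM in the granule layer (1.25 ± 0.35, adjusted p = 0.0119), without overlap. Without section 2 the adjusted p was 0.111 for Pclo and 0.254 for Syt7, and without section 3 it was 0.114 and 0.444. Of 9 tested genes of glutamate release and recycling, Slc17a7 was the only call (3.1% of all tested genes were higher and 2.26% lower). A single call says little about the list.

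Of 8 tested potassium channel genes, Kcna2 was higher and Kcnj4 was lower in the mitral layer (3.1% and 2.26% of all tested genes). Single calls say little about the family. Kcna2, the Kv1.2 potassium channel that shapes firing thresholds, had 254, 396 and 593 CPM in the mitral layer, against 32.1, 73.3 and 169 CPM in the granule layer (log2 fold change 2.18 ± 0.52, adjusted p = 0.00141). Kcnj4, the inward rectifier Kir2.3, showed the opposite order, with 254, 56.6 and 125 CPM in the mitral layer, against 530, 293 and 282 CPM in the granule layer (-1.43 ± 0.44, adjusted p = 0.0267). Neither had overlapping groups. The adjusted p of Kcna2 was 0.108 and 0.211 when sections 2 and 3 were left out, and that of Kcnj4 was 0.0847, 0.356 and 0.355 without sections 1, 2 and 3. None of 6 tested sodium and calcium channel genes passed in edgeR or DESeq2, with a median log2 fold change of -0.03.

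Cytoskeletal and growth-associated genes were higher in the mitral layer where they passed. Of 16 tested genes of the axonal cytoskeleton list, 3 were higher (Map1b, Stmn3 and Uchl1), none was lower, 14 were positive, and the median log2 fold change was 0.32. The share of all tested genes called higher was 3.1%. Map1b, a microtubule-associated protein of axons and dendrites, had 381, 3086 and 3155 CPM in the mitral layer, against 337, 1112 and 1071 CPM in the granule layer (log2 fold change 1.44 ± 0.19, adjusted p = 2.23e-11, and 0.211 without section 3). Its groups overlapped because both sums of section 1 were low, with 6 counts in the mitral layer and 21 in the granule layer. Stmn3, a stathmin that destabilizes microtubules, averaged 1031 ± 238 CPM in the mitral layer and 554 ± 244 CPM in the granule layer (SD, n = 3 each; log2 fold change 0.97 ± 0.24, adjusted p = 0.00223, and 0.12 and 0.444 without sections 2 and 3). The groups of Stmn3 overlapped, with 793 CPM in the mitral layer of section 2 and 835 CPM in the granule layer of section 1. Gap43, a growth-cone and presynaptic protein that binds calmodulin, had 8, 11 and 13 counts in the mitral layer and 3, 4 and 10 in the granule layer. Its log2 fold change was 2.31 ± 0.61 (adjusted p = 0.00548), without overlap, and without sections 2 and 3 the adjusted p was 0.104 and 0.158. The neurofilament genes were too sparse to test. Nefm had 2, 5 and 12 counts in the mitral layer and 2, 5 and 3 in the granule layer, and Nefl had 3, 11 and 9 in the mitral layer and 9, 6 and 8 in the granule layer.

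Of 6 tested genes of the neuropeptide and granin list, Chgb and Scg2, which encode matrix proteins of dense-core granules, were higher in the mitral layer and Penk was lower. The shares of all tested genes were 3.1% higher and 2.26% lower. The other list members tested did not pass, among them Scg5 (log2 fold change -0.12) and Pcsk1n (0.36). Chgb, the granule matrix protein chromogranin B, had 825, 566 and 375 CPM in the mitral layer, against 273, 232 and 240 CPM in the granule layer (log2 fold change 1.20 ± 0.31, adjusted p = 0.00401). Scg2, secretogranin II, had 571, 934 and 687 CPM in the mitral layer, against 353, 293 and 493 CPM in the granule layer (1.02 ± 0.26, adjusted p = 0.00428). Neither had overlapping groups. Without sections 1, 2 and 3 the adjusted p was 0.0848, 0.244 and 0.21 for Chgb, and 0.00901, 0.521 and 0.302 for Scg2.

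The promoters of the called genes were searched for 6 short motifs on both strands, in the 250 bases before the RefSeq start (GRCm38.p6), for the 38 of 57 called genes with an entry. Both granin genes held the full cyclic AMP response element, CRE, spelled TGACGTCA, which is a palindrome and contains the shorter core TGACG. It was present in 1.62% of 27025 promoters of the same length, in 3 of 24 higher genes (Chgb, Scg2 and Pak1) and in 0 of 14 lower genes. The 27025 promoters are not limited to genes tested here. The share among tested genes is not given, so these counts do not show an excess. The sites are shown because these 2 granin genes were higher together. Each is given 5′ to 3′ on the gene's strand as 30 bases, with the CRE in capitals.
Chgb: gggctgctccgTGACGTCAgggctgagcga
Scg2: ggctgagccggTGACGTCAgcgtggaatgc
Pak1: cccgggcccaaTGACGTCAcgcggcagcca
Pak1: tcaagtgctgaTGACGTCAtcccggcgccc
The windows lie at chr2:132781559-132781588 on the plus strand for Chgb, chr1:79440076-79440105 on the minus strand for Scg2, and chr7:97788296-97788325 and chr7:97788348-97788377 on the plus strand for Pak1. The element began 72 bases before the RefSeq start in Chgb, 68 in Scg2, and 234 and 182 in Pak1. The GENCODE M21 gene starts of Chgb (132781278) and Scg2 (79440120) lie farther upstream, so both windows are inside the gene in that annotation. The core TGACG was in 17.9% of all promoters, in 7 of the 24 higher genes and in 2 of the 14 lower genes. The T-box core GGTGTGA (3.31% of promoters), the Dlx-type homeobox site TAATTA (4.90%) and the EGR site GCGTGGGCG (0.540%) were in none of the 38, and the AP-1 site TGANTCA (6.87%) was in 1 higher gene. A match is a description of these letters and not evidence of binding.

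Markers of granule cells and other GABAergic interneurons were lower in the mitral layer where they passed. Of 15 tested genes on the granule cell and interneuron list, 4 were lower in the mitral layer (Gad1, Penk, Pcp4 and Nrgn), none was higher, 2 were positive, and the median log2 fold change was -0.35. The share of all tested genes called lower was 2.26%. Summed over all 20 genes of the list, the level was 8373, 9089 and 8059 CPM in the mitral layer, against 12644, 12441 and 11937 CPM in the granule layer, with no overlap.

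Gad1, which encodes the GABA-synthesizing enzyme GAD67 and lies at chr2:70553072-70602014 of mm10 on the plus strand, had 35, 74 and 52 counts in the mitral layer and 227, 230 and 190 in the granule layer. This was 2220, 2095 and 1624 CPM in the mitral layer, against 3647, 2811 and 2678 CPM in the granule layer. Every mitral value was below every granule value (log2 fold change -0.58 ± 0.17, adjusted p = 0.0176). The adjusted p was 0.0634, 0.154 and 0.43 without sections 1, 2 and 3, and 0.481 in DESeq2. Gad1 was the only call among 6 tested genes of GABA synthesis, packaging and uptake (2.26% of all tested genes were lower and 3.1% higher). A single call says little about the list. Gad2, which encodes GAD65, averaged 547 ± 126 CPM in the mitral layer and 621 ± 148 CPM in the granule layer, and the vesicular transporter Slc32a1 averaged 454 ± 23.7 and 620 ± 215 CPM in the mitral and the granule layer.

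Penk, the enkephalin precursor expressed by a subset of granule cells, had 7, 3 and 3 counts in the mitral layer and 52, 30 and 25 in the granule layer. Its groups overlapped through the mitral sum of section 1, at 444 CPM (log2 fold change -1.48 ± 0.38, adjusted p = 0.00434). Pcp4, a small calmodulin-binding protein, had 1078, 1019 and 906 CPM in the mitral layer, against 2217, 1442 and 1564 CPM in the granule layer, without overlap (-0.72 ± 0.21, adjusted p = 0.0154). The span of Pcp4 overlaps that of Igsf5. Meis2, a homeobox factor of granule cells, averaged 725 ± 452 CPM in the mitral layer and 1154 ± 627 CPM in the granule layer and did not pass (-0.65 ± 0.23, adjusted p = 0.0712). Without section 2 the adjusted p was 0.191 for Penk and 0.111 for Pcp4, without section 3 it was 0.366 and 0.407, and without section 1 it was 0.132 for Pcp4.

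Genes of the postsynaptic density were lower in the mitral layer where they passed. Of 14 tested postsynaptic density genes, Ptk2b, Nrgn and Icam5 were lower, none was higher, and 3 were positive (median log2 fold change -0.28). The share of all tested genes called lower was 2.26%. Ptk2b, the calcium-activated tyrosine kinase Pyk2, showed the largest decrease of the comparison. It had 3, 1 and 2 counts in the mitral layer and 32, 31 and 34 in the granule layer, or 190, 28.3 and 62.5 CPM in the mitral layer against 514, 379 and 479 CPM in the granule layer. The groups did not overlap (log2 fold change -2.54 ± 0.47, adjusted p = 5.78e-06). DESeq2 gave 0.161, and leaving out sections 2 and 3 gave adjusted p-values of 0.0922 and 0.182. Icam5, the dendritic adhesion protein telencephalin, had 5, 8 and 3 counts in the mitral layer and 36, 32 and 39 in the granule layer (-1.29 ± 0.36, adjusted p = 0.0104, and 0.111 and 0.572 without sections 2 and 3). Anks1b, a postsynaptic density protein outside the list, was lower as well (-1.58 ± 0.37, adjusted p = 0.00138, and 0.252 and 0.211 without sections 2 and 3). The scaffold genes Dlgap1 and Dlg4 had log2 fold changes of 0.04 and -0.12 and did not pass.

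Of 14 tested genes of calmodulin and its partners, Nrgn, Pcp4, Camk2n1 and Ppp3ca were lower and Gap43 was higher (median log2 fold change -0.34). The shares of all tested genes were 2.26% lower and 3.1% higher. Nrgn, the postsynaptic calmodulin-binding protein neurogranin, had 254, 142 and 125 CPM in the mitral layer, against 578, 403 and 437 CPM in the granule layer (-1.48 ± 0.38, adjusted p = 0.00438). Gap43 shares its calmodulin-binding motif with Nrgn but is presynaptic, and it went the opposite way, as given above. Camk2n1, an inhibitor of CaM kinase II, had 444, 793 and 562 CPM in the mitral layer, against 980, 1124 and 1142 CPM in the granule layer (-0.77 ± 0.24, adjusted p = 0.0304), again without overlap. Ppp3ca, the catalytic subunit of calcineurin, had 507, 595 and 593 CPM in the mitral layer, against 498, 1381 and 1113 CPM in the granule layer, so section 1 showed no decrease (-0.88 ± 0.25, adjusted p = 0.012). Without section 2 the adjusted p was 0.154 for Nrgn, 0.108 for Camk2n1 and 0.366 for Ppp3ca, and without section 3 it was 0.366, 0.529 and 0.445. Without section 1 it was 0.128 for Camk2n1.

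Rbfox3, the splicing factor detected by the NeuN antibody, which is known to leave mitral cells unstained, had 0, 8 and 1 counts in the mitral layer and 41, 34 and 14 in the granule layer. The mitral value of section 2 (226 CPM) was above the granule value of section 3 (197 CPM), so the groups overlapped (log2 fold change -1.78 ± 0.43, adjusted p = 0.00191). Leaving out section 1 gave an adjusted p of 0.177 and leaving out section 3 one of 0.407, and without section 2 the gene was not tested. Rbfox3 averaged 85.9 ± 123 CPM in the mitral layer, 153 ± 113 CPM in GCL-E and 499 ± 263 CPM in GCL-I. The granule level thus rests mostly on GCL-I. Against GCL-I alone the adjusted p was 0.0063, and against GCL-E alone the gene was not tested. Grin1, the obligatory subunit of the NMDA receptor, was lower and Olfm1, a secreted protein found with AMPA receptors, was higher among 8 tested genes of the glutamate receptor list. The shares of all tested genes were 2.26% lower and 3.1% higher. Grin1 had a log2 fold change of -0.97 ± 0.32 (adjusted p = 0.0489), and Olfm1 had one of 1.04 ± 0.25 (adjusted p = 0.00171). The groups of Grin1 overlapped, and those of Olfm1 did not. Without sections 1, 2 and 3 the adjusted p was 0.178, 0.172 and 0.43 for Grin1, and 0.0683, 0.0498 and 0.366 for Olfm1.

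Activity-dependent genes were sparse. Egr1, an immediate early transcription factor, was the single gene of 18 on the list with enough counts to be tested. It had 12, 11 and 7 counts in the mitral layer and 93, 46 and 46 in the granule layer, or 761, 311 and 219 CPM in the mitral layer against 1494, 562 and 648 CPM in the granule layer. The mitral value was lower within each section, while the value of section 1 overlapped the granule range (log2 fold change -1.07 ± 0.29, adjusted p = 0.00651, and 0.0922 and 0.376 without sections 2 and 3). Among the untested members, Fos had 0, 3 and 4 counts in the mitral layer and 11, 17 and 12 in the granule layer, and Arc had 1, 4 and 1 in the mitral layer and 12, 14 and 9 in the granule layer. Nr4a1 and Jund, also untested, were lower in the mitral layer in sections 1 and 3 and higher in section 2. Their levels in section 2 were 113 and 142 CPM in the mitral layer, against 73.3 and 122 CPM in the granule layer. Summed over the list, the level was 2030, 963 and 1156 CPM in the mitral layer, against 3631, 1528 and 1677 CPM in the granule layer.

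**Figure D3:**
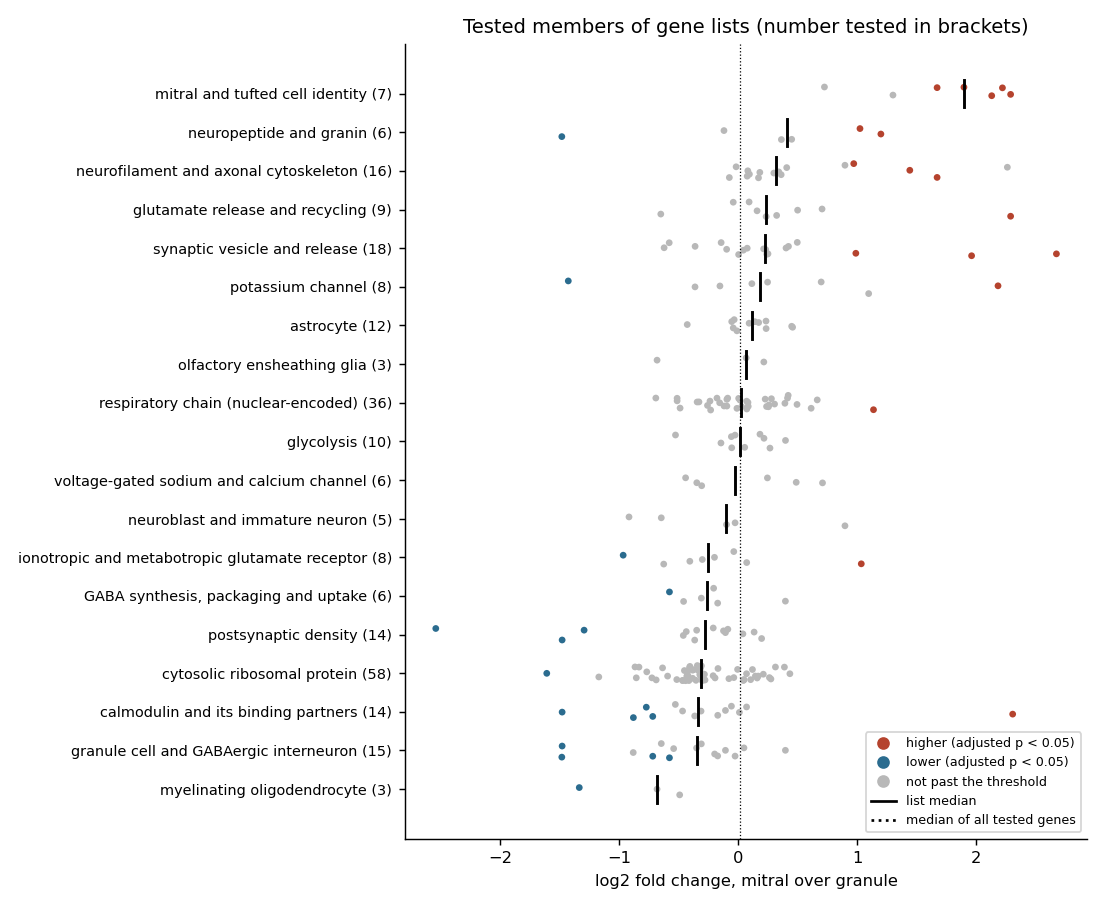
Log2 fold change (mitral over granule) of the tested members of 19 gene lists with at least 3 tested genes, 1 point per gene, with called genes coloured by direction and a mark at the list's median. Medians run from 1.90 for mitral and tufted markers to -0.35 for granule cell and interneuron markers among lists with at least 5 tested genes.

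Markers of other cells moved with the comparison in part, through single calls that say little about a list. Of all tested genes, 2.26% were lower and 3.1% higher. Of 15 myelin genes 3 were tested, and Mobp, a structural protein of oligodendrocyte myelin, was lower (6, 2 and 7 counts in the mitral layer and 29, 41 and 32 in the granule layer; log2 fold change -1.33 ± 0.37, adjusted p = 0.00996, and 0.545 and 0.407 without sections 2 and 3). Mbp had a log2 fold change of -0.49 and did not pass. The summed myelin level was between 1780 and 2854 CPM in the mitral layer, against 2994 to 3695 CPM in the granule layer. Opalin, Fa2h and Gjb1 were at 0 in the mitral layer, and Gjb1 and Ermn were at 0 in the granule layer. The part of myelin in the lower calls was not tested. Of the blood genes Hbb-bs, a beta-globin gene with a near-identical copy, was lower (0, 7 and 5 counts in the mitral layer and 17, 31 and 27 in the granule layer; -1.29 ± 0.42, adjusted p = 0.0386, and 0.162, 0.254 and 0.516 without sections 1, 2 and 3). Hba-a2 averaged 223 ± 173 CPM in the mitral layer and 223 ± 15.6 CPM in the granule layer. The summed blood level was 127 to 750 CPM in the mitral layer, against 578 to 916 CPM in the granule layer. Alas2 and Slc4a1 were at 0 in the mitral layer, and Slc4a1 was at 0 in the granule layer as well.

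Calb2, the calretinin gene of many periglomerular and some granule cells, was the only gene tested of 8 periglomerular markers and was higher (856 ± 490 CPM in the mitral layer and 378 ± 163 CPM in the granule layer, SD, n = 3 each; log2 fold change 1.16 ± 0.27, adjusted p = 0.00102, and 0.115 and 0.21 without sections 2 and 3). Its groups overlapped. The defining periglomerular markers Ddc, Slc6a3 and Calb1 were at 0 on both sides, and Th had 4, 1 and 1 counts in the mitral layer and 10, 6 and 6 in the granule layer. None of 12 tested astrocyte genes, 5 neuroblast genes or 3 ensheathing glia genes passed in edgeR or DESeq2, and no microglial or sensory axon gene had enough counts to be tested. In edgeR, 5.36% of all tested genes were called in either direction. The summed astrocyte level was 15351, 12515 and 13525 CPM in the mitral layer, against 11230, 11829.5 and 12825 CPM in the granule layer, and thus higher in the mitral layer within each section.

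The share of respiratory chain genes called higher was near that of all tested genes (3.1%). Of 36 tested nuclear genes of the respiratory chain, Ndufa5, a complex I subunit, was the only call (log2 fold change 1.14 ± 0.32, adjusted p = 0.0122, and 0.213, 0.192 and 0.376 without sections 1, 2 and 3), and the median was 0.02. The groups of Ndufa5 overlapped. None of 10 tested glycolytic genes passed in edgeR or DESeq2 (median 0.02). Cytosolic ribosomal protein genes leaned to the granule side. Of 58 tested, 15 were positive, the median was -0.31, and Rps23 was the only call (102.8 ± 40.0 CPM in the mitral layer and 300 ± 23.9 CPM in the granule layer; -1.61 ± 0.51, adjusted p = 0.0326, and 0.433 and 0.376 without sections 2 and 3). Their share of lower calls was near that of all tested genes (2.26%). Summed over 87 genes, their level was 28988, 19735 and 20334 CPM in the mitral layer, against 34670, 23904 and 24904 CPM in the granule layer, and lower in the mitral layer within each section.

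The remaining higher genes on the same side in all 3 sections were Mtor, Ttll7, Reep5, Pak1, Myo5a, Pfn2, Nrsn1, Unc80, Ptprd and Map4. They include the growth-regulating kinase Mtor (log2 fold change 1.58), the p21-activated kinase Pak1 (1.43), the actin-based motor Myo5a (1.07) and Unc80, a subunit of the sodium leak channel complex (1.02). The groups of Myo5a and Unc80 overlapped. The span of Mtor overlaps that of Angptl7. Lars2, Mir6236 and Gm23935 were called from sections 2 and 3 alone. Lars2 had 0, 628 and 429 counts in the mitral layer and 0, 797 and 637 in the granule layer (log2 fold change 0.77 ± 0.14, adjusted p = 2.44e-06). The remaining lower genes were Syne1, Tcf4, Ube2ql1, Cpne6, Pcbp3, Sez6 and Ctxn1. Pcbp3, a poly(C)-binding protein, was called without section 1 and without section 2 (444, 368 and 219 CPM in the mitral layer, against 1109, 660 and 817 CPM in the granule layer; -1.28 ± 0.29, adjusted p = 0.00101, and 0.373 without section 3). Without section 3, the adjusted p of the other genes of this paragraph lay between 0.182 (Ptprd, Reep5) and 0.755 (Mir6236), and without section 2 between 0.104 (Unc80) and 0.395 (Lars2). Without section 1 it was above the threshold for Mtor, Reep5, Pak1, Pfn2, Nrsn1, Syne1, Ube2ql1, Cpne6 and Sez6, between 0.0544 (Pak1, Sez6) and 0.414 (Reep5), and Ctxn1 was not tested.

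The 2 granule layers were also set against each other. Between GCL-E and GCL-I, edgeR called 0 of 666 tested genes (0%), with 26 at an unadjusted p under 0.05 and a smallest adjusted p of 0.998, and DESeq2 called 0 with 2 at an unadjusted p under 0.05. GCL-E lies next to the internal plexiform layer and was the shallower reference, with 56070 counts against 158957 in GCL-I. Set against GCL-I alone, 56 of the 57 genes could be tested and 51 were also called (background 6.24%). GCL-I holds most of the granule counts and the mitral sums are the same, so this overlap is not independent support. Set against GCL-E alone, 33 of the 57 had enough counts to be tested and 12 were called (background 3.67%). Cdhr1 had a log2 fold change of 3.66 against GCL-E and 1.92 against GCL-I, and Slc17a7 had 2.17 and 2.31. Mobp was lower by -1.76 against GCL-E (adjusted p = 0.00717) and by -1.16 against GCL-I (adjusted p = 0.102). Whether these pairs of values differ was not tested.

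Distance from the mitral layer was then followed inward, in array positions from the nearest mitral spot. The median distance of a spot was 15.5, 12.6 and 15.0 positions for GCL-E in sections 1, 2 and 3, and 32.0, 25.7 and 30.3 for GCL-I. Slc17a7 averaged 985 ± 429 CPM in the mitral layer, 434 ± 262 CPM up to 10 positions away, 285 ± 233 CPM up to 20 and 192 ± 91.5 CPM up to 30 (SD, n = 3 sections). Those bins rest on 73, 30, 19 and 13 counts, and section 1 was the highest in each of them. Rab3b averaged 547 ± 67.1, 239 ± 202, 129 ± 115 and 61.7 ± 77.5 CPM over the same steps. Doc2g dropped within the first step, with 911 ± 477 CPM in the mitral layer and 217 ± 274 CPM up to 10 positions away.

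Gad1 averaged 1980 ± 314 CPM in the mitral layer, 2950 ± 1168 CPM up to 10 positions away and 2852 ± 639 CPM up to 20. In the first step, where the internal plexiform layer lies, section 1 had 4298 CPM and sections 2 and 3 had 2292 and 2259 CPM, so the high mean there rests on section 1. Pcp4 averaged 1001 ± 87.7, 1110 ± 179, 1599 ± 459 and 1704 ± 420 CPM in the mitral layer and up to 10, 20 and 30 positions away. Mbp, the myelin basic protein gene, averaged 951 ± 133 CPM in the mitral layer, 1821 ± 296 CPM up to 10 positions away and 1529 ± 686 CPM up to 20. In the internal plexiform layer, the mean level lay between the mitral and granule means for 25 of the 33 higher genes and 21 of the 24 lower genes. It was closer to the granule mean for 29 of the 33 higher genes and 11 of the 24 lower genes. These genes were picked for extreme mitral and granule sums, which favours a mean in between, and the share over all tested genes is not given.

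**Figure D4:**
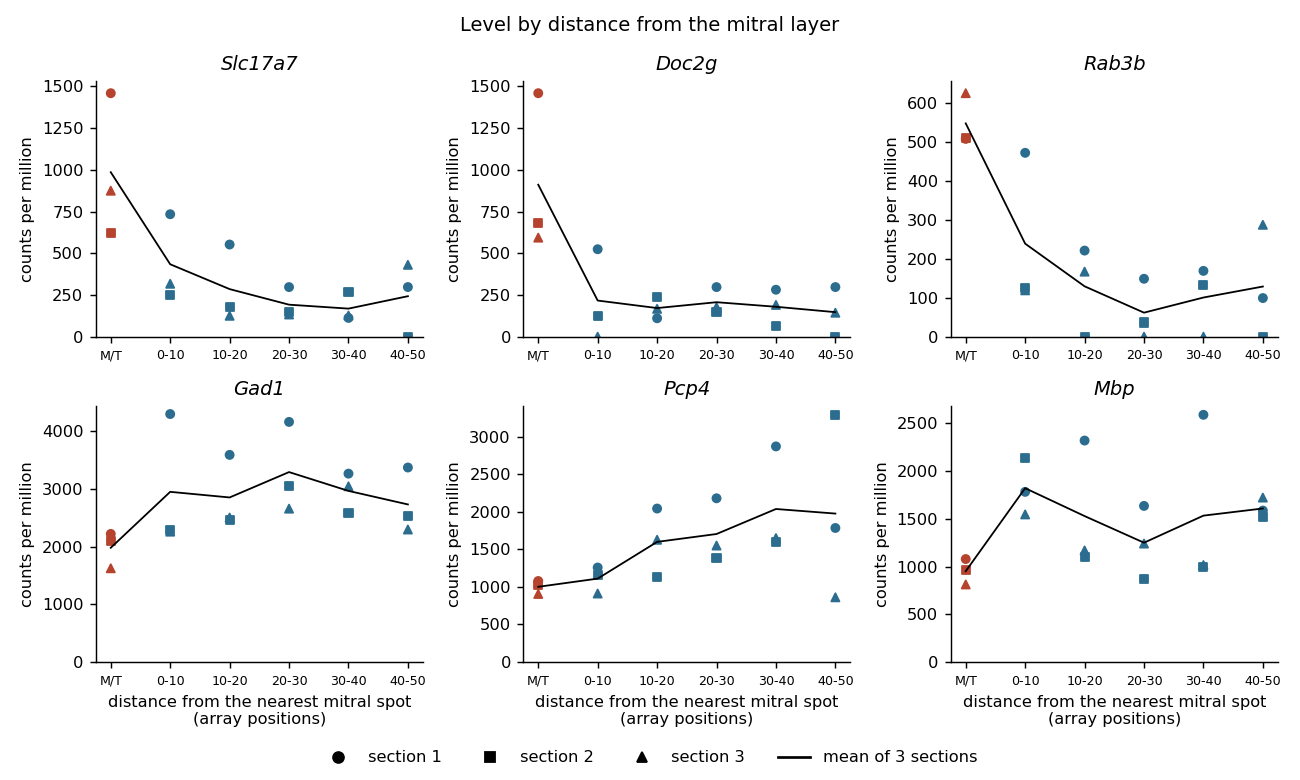
Level (CPM) of 6 genes against distance from the nearest mitral layer spot in bins of 10 array positions, with 1 symbol per section and a line through their mean. The means of Slc17a7, Doc2g and Rab3b are highest in the mitral layer, at 985, 911 and 547 CPM, and that of Gad1 is lowest there, at 1980 CPM.

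Across the layers of the bulb, leaving out the small rostral migratory system, the mitral layer had the highest mean for 23 of the 33 higher genes, the external plexiform layer for 8 and the glomerular layer for 2. These genes were picked by the same mitral sums, so a peak there is in part built in. The share over all tested genes is not given. Rab3b averaged 547 ± 67.1 CPM in the mitral layer, and 299 ± 90.7 CPM one layer outward in the external plexiform layer, with 191 ± 16.6 CPM in the glomerular layer. Gap43 averaged 408 ± 98.0 CPM in the mitral layer, against 173 ± 46.6 CPM in the external plexiform layer. Slc17a7 had 1459, 623 and 875 CPM in the mitral layer, against 1802, 443 and 503 CPM in the external plexiform layer, so it was lower outward in sections 2 and 3 and higher in section 1. Doc2g had 1459, 680 and 593 CPM in the mitral layer, against 1389, 640 and 790 CPM in the external plexiform layer, lower outward in sections 1 and 2 and higher in section 3. Map1b averaged 2207 ± 1582 CPM in the mitral layer and 2356 ± 1424 CPM in the external plexiform layer. These outward comparisons are descriptions with no test.

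Of the 24 lower genes, the internal granule layer had the highest mean for 10, the external granule layer for 5 and the ependymal cell zone at the centre of the bulb for 6. A peak in the granule layers is likewise in part built in by the way these genes were picked. Ptk2b averaged 93.7 ± 85.4 CPM in the mitral layer, against 447 ± 112 CPM in GCL-E and 464 ± 59.4 CPM in GCL-I. Nrgn averaged 173 ± 70.0 CPM in the mitral layer, against 376 ± 153 CPM in GCL-E, 513 ± 69.2 CPM in GCL-I and 909 ± 247 CPM in the ependymal cell zone. Hbb-bs had its lowest mean in the mitral layer, at 118 ± 104 CPM, against 1193 ± 308 CPM in the olfactory nerve layer at the surface of the bulb.

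**Figure D5:**
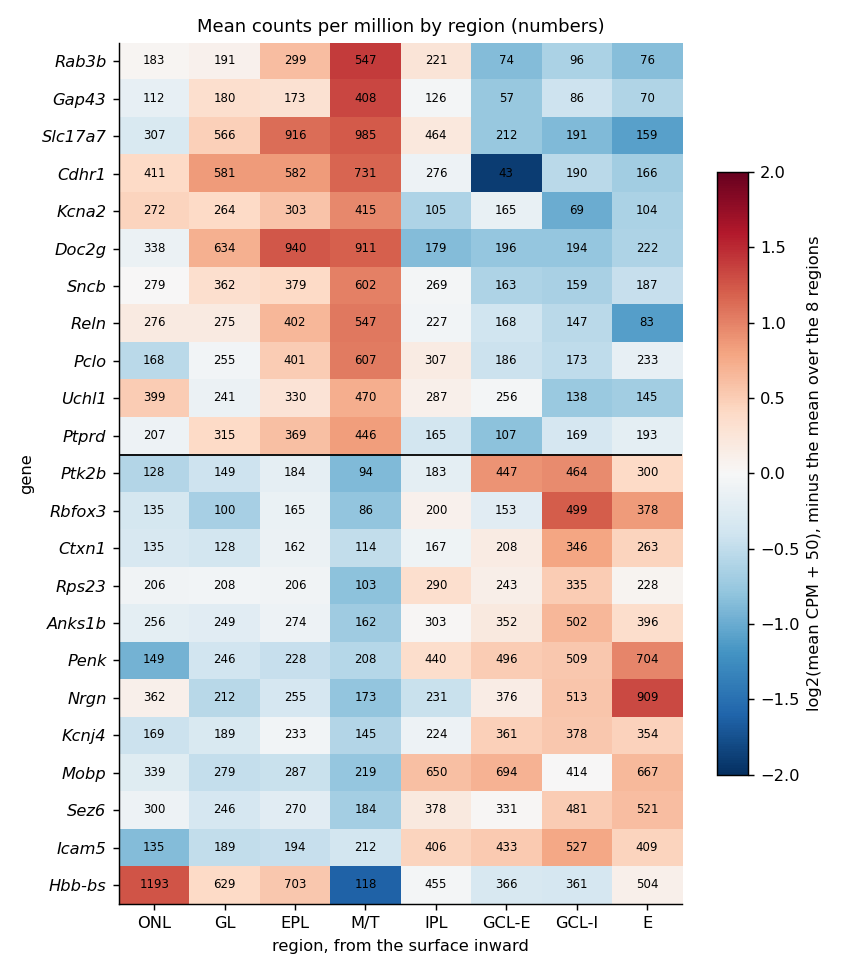
Mean level of the named genes in 8 regions from the surface to the centre of the bulb, as log2 difference from each gene's mean over regions (pseudocount 50 CPM). Genes higher in the mitral layer are at the top, and lower genes are below. Of all 33 higher genes, 23 peak in the mitral layer, whose sums also picked them.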

How the data were processed

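The authors deposited, for each of 3 sections, raw transcript counts per spot and gene, and array and pixel positions (other values) with a named region for each spot, per the file headers. Per the submitters' processing notes, mm10 was the build used, and the aligner, counter, annotation, strand use and whether counts are unique molecules are not given in the sources used here.

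Pixel positions linked every count entry (100%) to a region. Counts without a gene name (0.0325%, 0.0764% and 0.0801% of a section) were left out. Counts were summed per section and side and tested with edgeR 4.0.16 in R 4.3.3 (quasi-likelihood, TMM scaling, filterByExpr by side with a minimum count of 10, section as a block, Benjamini-Hochberg adjustment, threshold 0.05). The 1063 genes left held 47.9% of the counts. The median prior degrees of freedom of the fit was infinite. A gene's own spread around the section and side effects therefore had almost no weight in its p-value or standard error. The standard error was taken as the fold change divided by the root of F and is approximate. The shallowest sum held 15765 counts, which limits precision.

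Section was a block because a section's 2 sums share tissue and array. Deviations of these sums from the side means correlated at 0.708, 0.491 and 0.456 for sections 1, 2 and 3. Mitral and granule sums of sections 2 and 3 also correlated across sections (0.405 and 0.504), and 0.504 is above both values within sections 2 and 3. The correlations therefore do not show pairing within sections 2 and 3. On simulated counts for the 1063 genes of this comparison, 50.0% of genes changed by a fold of 2 and 91.8% of those changed by a fold of 4 were recovered, with 4.08% of 147 calls false. The counts were drawn with the common dispersion of this fit for every gene, and 200 genes were changed. The false share thus holds under the fit's own assumptions and is not the error rate of the calls above.

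Named genes were the 12 largest past the threshold in each direction, on the same side in all 3 sections and with at least 30 counts on the higher side, up to 4 members with the most counts and the called members of each of 27 gene lists, and the markers Slc17a7 and Gad1. The rest of the called genes, and other list members with few counts, were chosen after their values were seen. Some genes that these rules take are not reported here. Members and lists were chosen with earlier results of these data known. Of the 57 called genes, 28 overlap another annotated gene in GENCODE M21 (5 of them a protein-coding gene), where reads may be shared. Gene locations come from GENCODE M21, which held 99.8% of 19640 symbols, and promoters from RefSeq. Alternatives included DESeq2 1.42.0, and tables and figures used Python 3.11.15, pandas 2.3.3 and matplotlib 3.10.9.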

Additional observations from a re-analysis of the deposited data

How the results depend on the processing

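Of the 57 called genes, all kept their direction under every alternative that could test them, except Map4, whose log2 fold change was -0.32 when spots within 5 array positions of another region were left out, where the median of all tested genes was -0.43. That alternative, which leaves few mitral spots, called 1 gene higher and 0 lower of 397 tested (43 at an unadjusted p under 0.05). In place of 33 higher and 24 lower genes, no filter on low counts gave 12 higher and 33 lower of 14766 tested, DESeq2 gave 8 higher and 0 lower (62 at an unadjusted p under 0.05), GCL-E alone gave 9 and 3 of 327 tested, granule sums thinned to the mitral depth gave 20 and 3 of 576, and fitting all regions together gave 14 lower. With no replicate block, so that sections are not paired, 0 genes were higher and 0 lower (74 at an unadjusted p under 0.05). Leaving out a section gave between 2 and 25 higher genes and between 0 and 16 lower genes. Other scalings, the join by name, GCL-I alone and 2 alternatives chosen after seeing the data (all regions but the rostral migratory system, and Lars2, Mir6236 and Gm23935 left out) stayed within 1.5 times of both counts. Between GCL-E and GCL-I the count was 0 under every alternative run, DESeq2 included. Depth is a limit, as the mitral sums are the shallower side. A gene with few mitral counts could enter the test through the granule sums. Some lower calls, such as Ptk2b with 3, 1 and 2 mitral counts, thus rest on few counts there. The cause of the lost calls was not tested.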

Other observations

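A group of genes outside the lists was at or near 0 in a single section. Lars2 had 17781 and 13400 CPM in the mitral layer of sections 2 and 3, against 9740 and 8978 CPM in the granule layer, and 0 counts on both sides of section 1. Mir6236 had 0 counts in the mitral layer of section 1 and 1 in the granule layer, and Gm23935 had 0 on both sides, against 75 to 91 counts in the mitral layer and 104 to 145 in the granule layer of sections 2 and 3. These 3 genes were chosen after their values were seen.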
